A study of Brachypodium distachyon with 9 samples.

Results

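CBF5 and CBF7 are C-repeat binding factor genes of the grass Brachypodium distachyon, and both were found by their gene symbol in the deposited tables. They are 2 of the 28607 features in the count table and are also present in the 28454 features of the normalised table. Both are protein-coding and lie on the minus strand of chromosome 4 in assembly Brachypodium_distachyon_v3.0, CBF5 at 40892649 to 40893643 (995 bases) and CBF7 at 40903477 to 40904696 (1220 bases), with 9833 bases between them. RefSeq places a pseudogene, LOC100831469 (40893909 to 40895744), in that interval, which was not analysed here. Transcript abundance was measured by RNA sequencing in whole shoots of 3 genotypes of line 21-3, each with 3 biological replicates. Wild type plants were compared with the CRISPR/Cas9 lines gf14h-1, mutated in a 14-3-3 protein gene, and hdac19-2b, mutated in HISTONE DEACETYLASE 19. Per the labels each mutant is homozygous for an exon 1 change with a premature stop, in the wild type background, and each gene is represented by a single mutant line. All 3 genotypes grew for 18 days at 20 °C in 14 h of light and 18 °C in 10 h of dark, and then had no water for 15 days in 16 h of light and 8 h of dark. Shoots were taken at the 5-leaf stage, 3 h after dawn. A well-watered group is not analysed here, so no value below is a response to drought.

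C-repeat binding factors, also called DREB1 proteins, are transcription factors of the AP2/ERF family. In Arabidopsis they bind the C-repeat or dehydration-responsive element in the promoters of cold- and dehydration-responsive genes and raise their transcription, and their own transcripts appear quickly on chilling and follow the time of day. In temperate cereals these genes stand in clusters, one of which coincides with a frost resistance locus. The protein GF14h belongs to the 14-3-3 family, whose members dock onto phosphorylated partner proteins, and HDAC19 takes acetyl groups off histones.

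Library totals ran from 3302835 to 36632994 counts, with the lowest in gf14h-1 replicate 3 and the highest in wild type replicate 3. A floor of 3 counts in a library corresponded to between 0.0840 and 1.06 CPM (counts per 1000000 counts, after TMM scaling), so gf14h-1 replicate 3 measures a low transcript least well. It detected the fewest features, 23016, and gf14h-1 replicate 1 the next fewest, 24218. All 9 leaf chloroplast genes used as a check of green tissue were detected in every library, with a summed level of 2948 to 7036 CPM. The 31 MADS-box features, which include floral organ genes, summed to 464 to 559 CPM in wild type, 509 to 645 in gf14h-1 and 410 to 474 in hdac19-2b, and none was at 0 in all libraries. Their part in the results below was not tested. Since shoots are whole organs, fewer cells with a transcript and less transcript per cell cannot be told apart.

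CBF7 was the more abundant of the pair and was lower in both mutants than in wild type. In wild type it stood at 65.6, 12.2 and 22.9 CPM in replicates 1, 2 and 3, from 918, 149 and 819 counts. In gf14h-1 it stood at 2.79, 6.03 and 3.88 CPM, from 52, 92 and 11 counts. In hdac19-2b it stood at 2.83, 2.11 and 1.21 CPM, from 49, 25 and 19 counts. Every mutant library was below every wild type library, which was so for 6.68% of tested features in gf14h-1 and 8.48% in hdac19-2b, and the ranges of the mutants overlapped each other. The closest pair across that boundary was wild type replicate 2 and gf14h-1 replicate 2, whose ratio was 2.03 with an exact 95% counting interval of 1.55 to 2.66. Intervals of this kind cover counting error only.

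CBF5 was detected in wild type libraries and in no mutant library. It had 81, 9 and 46 counts in wild type replicates 1, 2 and 3, which is 5.79, 0.739 and 1.29 CPM. It had 0 counts in each of the 6 mutant libraries. The exact 95% upper limits of those zeros were 0.198, 0.242 and 1.30 CPM in gf14h-1 replicates 1, 2 and 3 and 0.213, 0.312 and 0.234 CPM in hdac19-2b replicates 1, 2 and 3. The limit lay below the lowest wild type value in every mutant library except gf14h-1 replicate 3. There it lay above the levels of wild type replicate 2 and, narrowly, replicate 3. The floor of 3 counts in gf14h-1 replicate 3, 1.06 CPM, lay above the level of wild type replicate 2 but below that of replicate 3. Against a floor of 3 counts over the summed libraries of the group, pooled CBF5 was at least 26.9-fold lower in gf14h-1. In hdac19-2b it was at least 32.9-fold lower. These bounds take the pooled wild type level as given and leave out its counting error and the spread among wild type libraries. The floor of 3 counts is below the exact 95% limit of a 0 count, 0.161 against 0.198 CPM in gf14h-1 replicate 1. With the exact limit the bounds would be smaller. The lowest wild type library stood at 0.739 CPM, beside pooled floors of 0.0817 CPM in gf14h-1 and 0.0668 CPM in hdac19-2b. Without wild type replicate 1, which held 81 of the 136 wild type counts, pooled CBF5 was at least 14.1-fold and 17.2-fold lower, and without replicate 3 at least 42.1-fold and 51.5-fold lower.

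**Figure D1:**
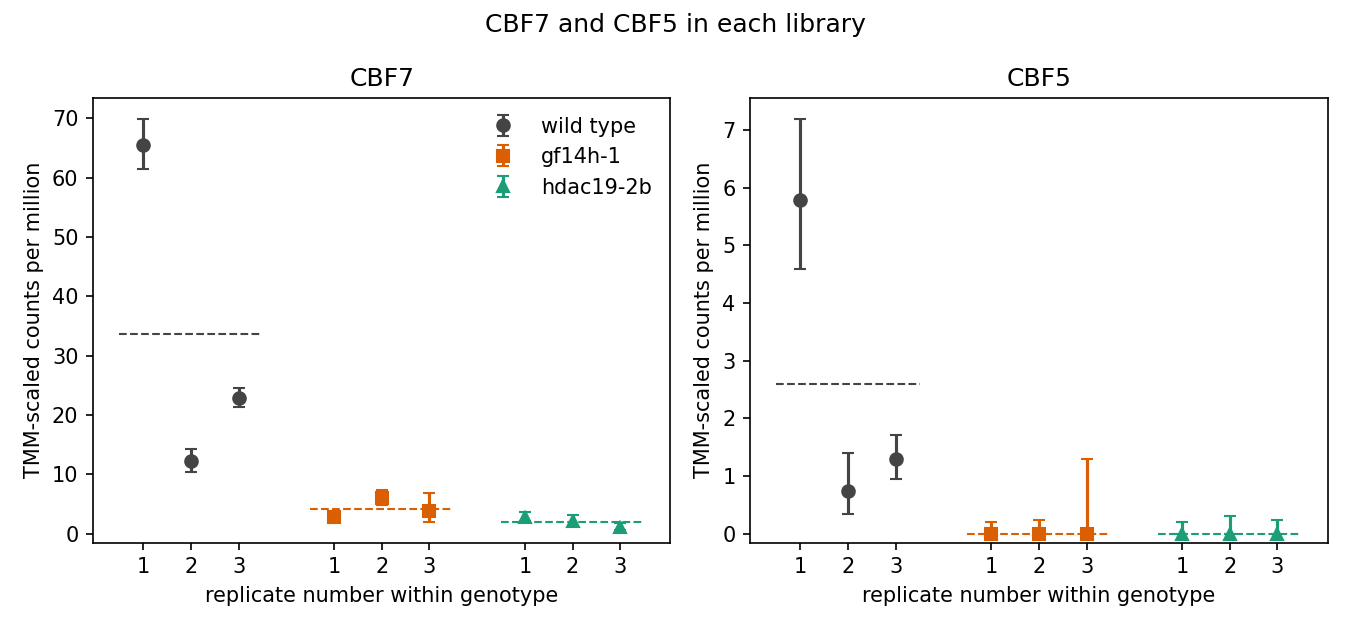
TMM-scaled CPM of CBF7 (left) and CBF5 (right) in each library, with exact 95% counting intervals as bars and the genotype mean as a dashed line. Wild type replicate 1 is the highest point for both genes, at 65.6 CPM for CBF7 and 5.79 CPM for CBF5, and CBF5 is at 0 in all 6 mutant libraries.

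The fall of CBF7 passed the test in hdac19-2b and not in gf14h-1. Its mean in wild type was 33.6 ± 28.2 CPM, while gf14h-1 had 4.23 ± 1.65 CPM and hdac19-2b had 2.05 ± 0.814 CPM (SD, n = 3). The wild type mean was 16.4 times that of hdac19-2b, and the log2 fold change was −4.03, with a 95% interval of −5.42 to −2.63 and an edgeR adjusted p of 0.0261 (quasi-likelihood test, Benjamini-Hochberg over all tested features). In that comparison 0.192% of the 23898 tested features were called lower, and CBF7 ranked 49 by p. The wild type mean was 7.93 times that of gf14h-1, with a log2 fold change of −2.97, a 95% interval of −4.31 to −1.63 and an edgeR adjusted p of 0.129, where 0.0795% of features were called lower. Both intervals use a standard error derived from that test.

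The 2 mutants were not shown to differ in CBF7. The log2 difference of gf14h-1 minus hdac19-2b was 1.05, with a 95% interval of −0.29 to 2.40 and an edgeR adjusted p of 0.658. In that comparison 0.0167% of features were called. The interval includes levels up to 2.40 log2 units higher in gf14h-1, so these libraries do not bound the difference closely. CBF5 was at 0 in both mutants and no fold between them can be given.

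CBF5 did not pass the test in either mutant, with an edgeR adjusted p of 0.320 for gf14h-1 and of 0.188 for hdac19-2b. Its wild type mean was 2.60 ± 2.77 CPM (SD, n = 3), so the spread of the wild type libraries was as large as the mean itself. The DESeq2 Wald test did call CBF5 in both mutants, with adjusted p of 0.0247 and 0.00540, and it called CBF7 in gf14h-1 with 3.27e-04. CBF5 entered the test only through its wild type libraries, which alone put it past the filter on low counts.

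Taking the mean of both mutants against the shared wild type libraries, the fall of CBF7 passed the edgeR test and that of CBF5 did not. CBF7 had a log2 fold change of −3.50, with a 95% interval of −4.55 to −2.45 and an edgeR adjusted p of 0.0100, and CBF5 an edgeR adjusted p of 0.0831. In this contrast 0.343% of features were called lower, and in 2.12% all 6 mutant libraries lay below all 3 wild type libraries. The exact two-sided permutation test over samples, on log2(CPM + 0.5), gave p = 0.0238 for both CBF7 and CBF5. That is the smallest that 84 arrangements of 6 against 3 libraries allow. Any feature with all 6 mutant libraries below all 3 wild type libraries gets it, so it adds nothing to that separation. Against 1 mutant alone, 3 libraries against 3, the same test cannot go below 0.1 and gave 0.1 for both genes in both mutants.

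How far these calls hold depends on wild type replicate 1, where both genes were highest. Without it, the log2 fold change of CBF7 was −3.11 in hdac19-2b (adjusted p 0.0742), −2.06 in gf14h-1 (0.465) and −2.59 for the mean of both mutants (0.0590), all in edgeR. The hdac19-2b call was also lost without wild type replicate 3 and without any one of the hdac19-2b libraries, with edgeR adjusted p between 0.0735 and 0.182, while the log2 fold change stayed between −4.35 and −3.75. For the mean of both mutants the call held in the edgeR fits that left out any other single library (adjusted p 0.00557 to 0.0460). It was lost when gf14h-1 replicates 1 and 3, the libraries with the fewest detected features, were left out together, at a log2 fold change of −3.25 and an edgeR adjusted p of 0.0791. In that fit the remaining gf14h-1 library was assumed to vary like the other groups.

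**Figure D2:**
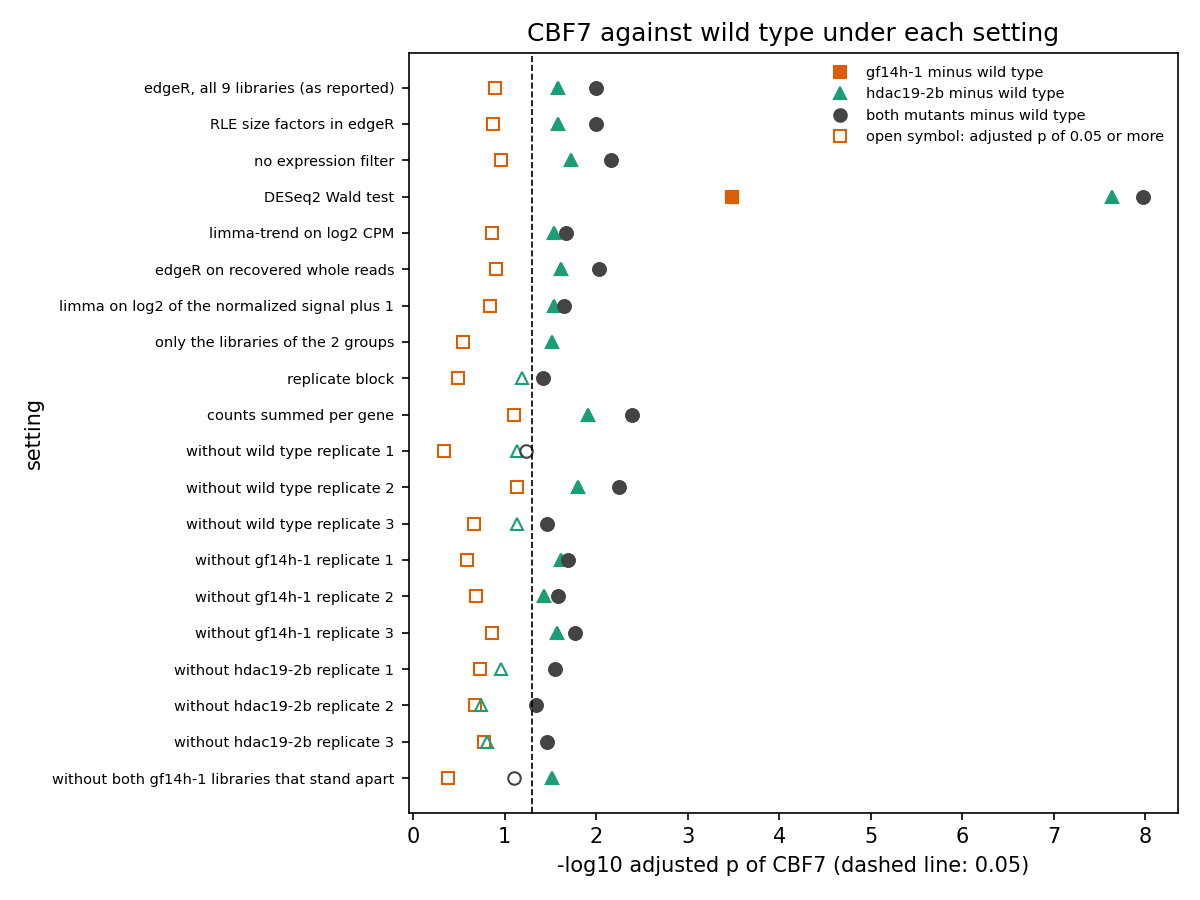
The −log10 adjusted p of CBF7 for gf14h-1 (squares), hdac19-2b (triangles) and the mean of both mutants (circles) against wild type, with 1 setting per line, filled symbols below an adjusted p of 0.05 and a dashed line at 0.05. For gf14h-1 only the DESeq2 Wald test lies past the line, and without wild type replicate 1 no comparison does.

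The wild type libraries differed widely in CBF7. Wild type replicate 1, the highest, is the only library with a sample name beginning HS, where all others begin HJ. What these prefixes mark is not stated, and their part in the spread was not tested. Replicate 1 was 2.86 times replicate 3 (exact 95% counting interval 2.60 to 3.14) and 5.36 times replicate 2 (4.51 to 6.42). Replicate 3 in turn was 1.88 times replicate 2 (1.57 to 2.25). On the log2 CPM scale CBF7 spanned 2.41 units among wild type libraries, and 6.89% of the 23898 tested features spanned more, against a median span of 0.61. In gf14h-1 it spanned 1.08, where the median feature spanned 1.11, and in hdac19-2b 1.15, where the median was 0.57. The coefficient of variation was 84.0% in wild type, 38.9% in gf14h-1 and 39.7% in hdac19-2b.

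CBF5 followed the same order of wild type libraries. Replicate 1 was 7.83 times replicate 2 (exact 95% counting interval 3.93 to 17.7) and 4.49 times replicate 3 (3.09 to 6.60). Replicates 3 and 2 were not resolved, at a ratio of 1.74 with an interval of 0.844 to 4.05. CBF5 spanned 2.77 log2 CPM units among wild type libraries, and 5.27% of tested features spanned more. Its coefficient of variation there was 106%.

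Ordered by level, CBF7 ran from wild type replicate 1 through wild type replicates 3 and 2 to gf14h-1 replicates 2 and 3, then hdac19-2b replicate 1, gf14h-1 replicate 1 and hdac19-2b replicates 2 and 3. The counting intervals of the 3 wild type libraries did not overlap each other. Those of the mutant libraries overlapped between each pair of neighbours in this order. The interval of gf14h-1 replicate 2, 4.86 to 7.40 CPM, lay below that of wild type replicate 2, 10.3 to 14.4 CPM.

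Per kilobase of annotated length, CBF7 was also the higher of the pair in wild type, at 27.5 ± 23.1 CPM per kb against 2.62 ± 2.78 CPM per kb for CBF5 (SD, n = 3). In mutants CBF7 remained measurable at 3.47 ± 1.35 CPM per kb in gf14h-1 and 1.68 ± 0.667 CPM per kb in hdac19-2b (SD, n = 3). The share of CBF5 in the counts of both genes does not depend on library scaling. It was 8.11% in wild type replicate 1 (81 of 999 counts, exact 95% interval 6.49% to 9.98%), 5.70% in replicate 2 (9 of 158, 2.64% to 10.5%) and 5.32% in replicate 3 (46 of 865, 3.92% to 7.03%). The 3 intervals overlapped.

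In the mutants that share was 0. CBF5 had 0 of 155 counts in gf14h-1, with an exact 95% upper limit of 2.35%, and 0 of 93 in hdac19-2b, with an upper limit of 3.89%. Summed over wild type it was 136 of 2022 counts, 6.73% (exact 95% interval 5.67% to 7.91%). Taken singly, 5 of the mutant libraries were too shallow for their interval to fall below all 3 wild type shares, with upper bounds of 6.85% to 28.5%, and gf14h-1 replicate 2 reached 3.93%. Both limits for the summed mutant counts lay below all 3 wild type shares. The hdac19-2b limit still lay within the interval of wild type replicate 2, 2.64% to 10.5%. These limits cover counting error only and not variation between libraries, and 92 of the 155 gf14h-1 counts came from replicate 2.

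**Figure D3:**
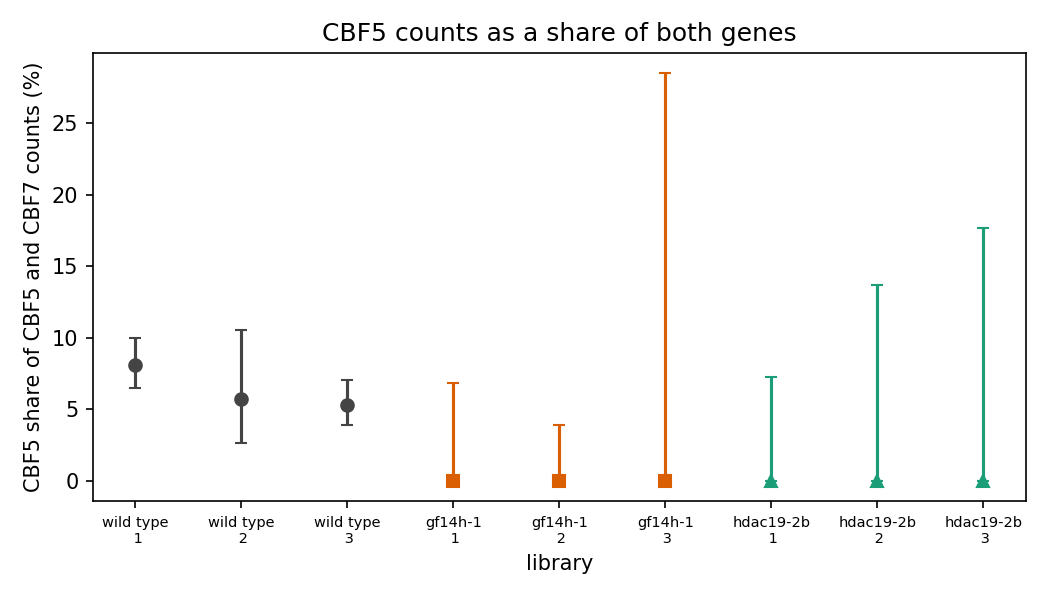
CBF5 counts as a percentage of CBF5 and CBF7 counts in each library, with exact 95% binomial intervals. The wild type shares are 8.11%, 5.70% and 5.32%, and the mutant shares are all 0, with upper bounds from 3.93% to 28.5%.

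Few features shared the on-off pattern of CBF5. Of the 28607 features, 34 had at least 1 count in each wild type library and 0 in all 6 mutant libraries, and CBF5 had the most wild type counts among them, 136. Next came a non-coding transcript feature of LOC100825217, with 81. Among the 23898 tested features, 2 (0.00837%) had 0 counts in all mutant libraries. The other was a non-coding transcript feature of LOC100838186, with 49 wild type counts. Features at 0 in all mutant libraries can pass the filter on low counts only through wild type, so the filter itself keeps this share small. This description was chosen after the values of CBF5 were seen.

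The other tested genes around the pair were not called. RefSeq annotates 18 genes within 50000 bases on either side. Of these, 11 were analysed, and CBF2, CBF3 and 5 others were not analysed here. The test took in 9 of the 11, 2 of them CBF5 and CBF7, and the edgeR adjusted p of the other 7 was at least 0.803 in both mutants. LOC106866613, which lies between CBF4 and CBF5, had 2.13 ± 0.768 CPM in wild type, 0.946 ± 1.08 in gf14h-1 and 1.83 ± 0.743 in hdac19-2b (SD, n = 3). Part of it overlaps LOC100840062, so its counts may hold reads of that gene. On the other flank, LOC100832071, 17079 bases beyond CBF7, had 4.17 ± 0.988, 4.01 ± 4.23 and 4.86 ± 1.34 CPM (SD, n = 3) in wild type, gf14h-1 and hdac19-2b. The evenly expressed LOC100839148 had 75.0 ± 4.67, 68.7 ± 4.87 and 73.2 ± 9.53 CPM (SD, n = 3) in the same order. For these 3 genes the groups overlapped.

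The third C-repeat binding factor that was analysed, CBF4 (40878630 to 40880357, plus strand), was close to the detection limit and was not tested. It had 7, 2 and 12 counts in wild type replicates 1, 2 and 3, 22, 4 and 2 in gf14h-1 and 1, 3 and 0 in hdac19-2b. That is 0.333 ± 0.168, 0.716 ± 0.459 and 0.104 ± 0.133 CPM (SD, n = 3). Its groups overlapped, and unlike CBF5 it kept counts in 5 of 6 mutant libraries. LOC100830551 (40865594 to 40867021), to which the tables give no name, had 6, 2 and 14 wild type counts and 0 in all mutant libraries. Over the summed libraries it was at least 4.35-fold lower in gf14h-1 and 5.32-fold lower in hdac19-2b, taking the pooled wild type level as given. It too was under the filter on low counts and was not tested.

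**Figure D4:**
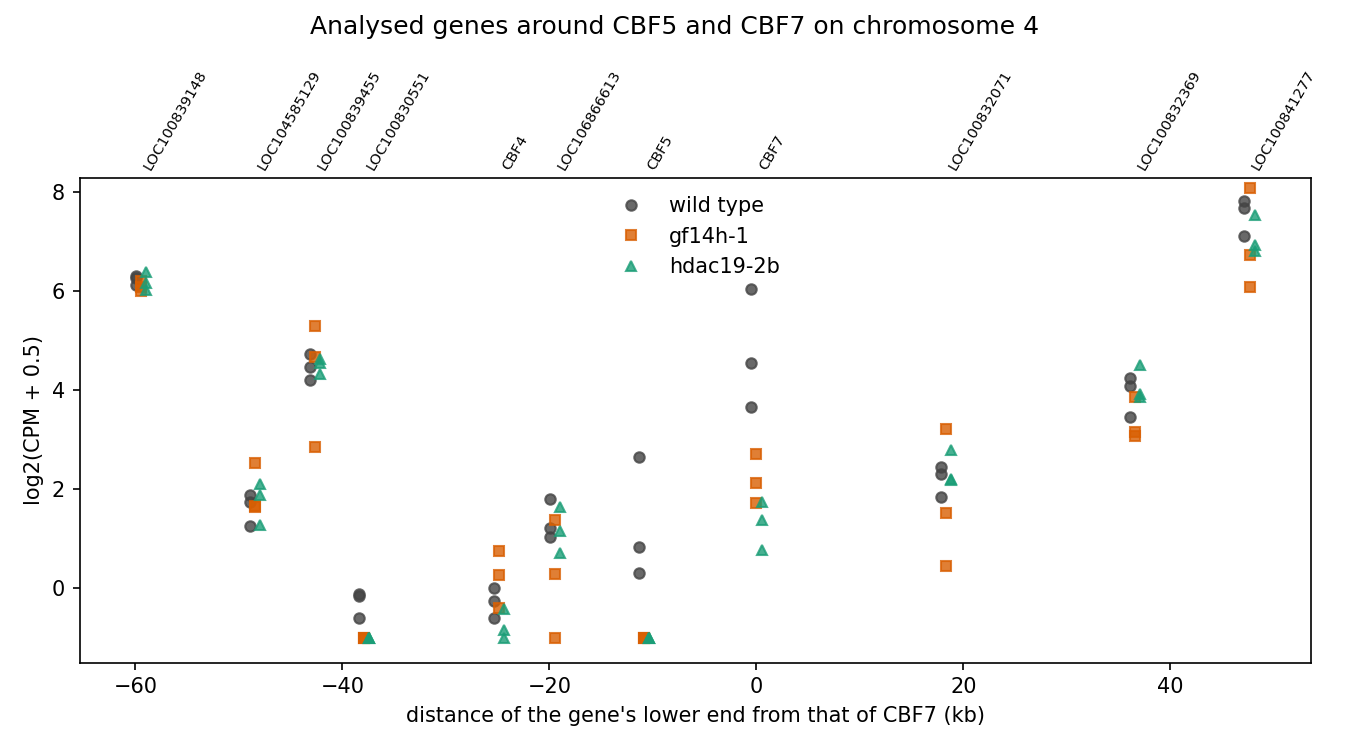
Level of the 11 analysed genes at and around CBF5 and CBF7, as log2(CPM + 0.5), against the distance in kb of each gene's lower end from that of CBF7, with 1 symbol per library. At CBF7, CBF5 and LOC100830551 all wild type circles lie above all mutant symbols, as for 2.12% of tested features. LOC100830551 had only 6, 2 and 14 wild type counts and was not tested. The lowest level on the axis, −1, stands for 0 counts.

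The features with a pattern most like CBF7 were ranked by Pearson correlation of log2 CPM over the 9 libraries. The ranking takes in both the difference between genotypes and the spread within them, and features of 1 library share its depth. The 5 most alike were the pseudogene LOC100842323 (r = 0.981) and the protein-coding LOC100838062 (0.978), LOC100835758 (0.976), LOC100834901 (0.975) and LOC106865416 (0.974), of which none has a further name in the tables. They lie on chromosomes 2, 1, 4, 2 and 3, so none is a neighbour of CBF7. In all, 78 features had r above 0.9, and CBF5 stood at 21 in the order, with r = 0.944. Wild type replicates 1 and 3 were the libraries farthest from the median of CBF7. Without them, r over the other 7 was 0.937, 0.921, 0.943, 0.953 and 0.90 for the 5. CBF5 had 0.754, a value that rests on wild type replicate 2 alone, since its count was 0 in every mutant library.

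LOC106865416 (chromosome 3, 22666805 to 22667636) came nearest to CBF7 in level and size of difference as well. It had 84.9, 16.1 and 24.7 CPM in wild type replicates 1, 2 and 3. It had 3.49, 5.51 and 5.64 CPM in gf14h-1 and 1.85, 3.80 and 1.78 CPM in hdac19-2b. Wild type replicate 1 was again the highest library and replicate 2 the lowest of wild type. LOC100835758 (chromosome 4, 34716809 to 34719890) had 27.0, 13.3 and 13.8 CPM in the wild type replicates. Its values were 2.95, 3.67 and 4.23 CPM for gf14h-1 and 3.35, 2.53 and 1.59 CPM for hdac19-2b, so every mutant library was below wild type. The abundant LOC100834901 had a smaller span, from 206 CPM in wild type replicate 1 to 87.7 CPM in hdac19-2b replicate 3. These features were chosen for their pattern, so their differences between genotypes are given with no test.

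With the genotype means removed, the same 5 features had r of 0.911, 0.910, 0.874, 0.862 and 0.837 with CBF7 in the order given above. They stood at ranks 35, 36, 97, 144 and 219, and 50 features had r above 0.9. Since the 5 were chosen on the same 9 libraries, this is no separate check. CBF5 had 0.830, which comes from the wild type libraries only, since its count was 0 in every mutant library. Whether CBF5 varies with CBF7 within a mutant cannot be seen here. Other features led the ranking. LOC100837902 had r = 0.984 with CBF7 over the 9 libraries, LOC100824783 had 0.976 and LOC100828063 had 0.973. None of these 3 was lower in both mutants. LOC100828063 stood at 26.1, 5.99 and 8.10 CPM in the wild type replicates, at 10.9, 27.9 and 15.2 CPM for gf14h-1 and at 60.3, 36.5 and 26.5 CPM for hdac19-2b, so it had the order of CBF7 within each genotype and was highest in the mutant where CBF7 was lowest.

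**Figure D5:**
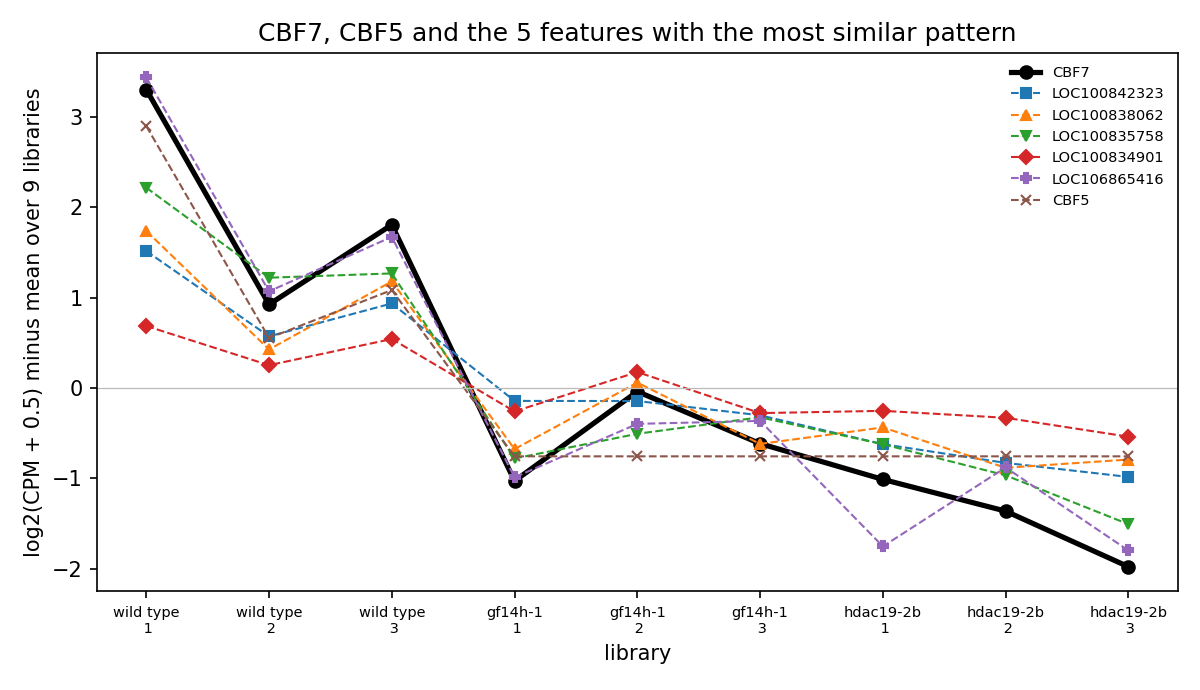
Level as log2(CPM + 0.5), minus its mean over the 9 libraries, of CBF7 (black), CBF5 (crosses) and the 5 features with the highest correlation with CBF7, by library. All 7 are highest in wild type replicate 1, and the lines only guide the eye between unordered libraries.

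Among the other genes of the cold and drought response that the tables name, 1 was called against wild type. Apart from CBF5 and CBF7, 20 genes (21 features, 20 tested) were covered: CBF4, the SnRK2 kinases of the SAPK group and type 2C protein phosphatases of abscisic acid signalling, the bZIP factor TRAB1, MAP kinases, and calcium sensors and kinases of the CBL and CIPK families. None was called in gf14h-1, where 0.146% of all tested features were called and the median log2 fold change of the list was 0.01 beside a median of 0.00 over all tested features. One was called higher and none lower in hdac19-2b, where 0.272% of all tested features were called. The median there was −0.10, beside 0.02. The names ICE1, CAMTA, DREB1, DREB2, COR410, COR413, DHN, LEA3, RAB16, RAB18 and ABI5 were also searched and matched no other feature. The list therefore does not describe the targets of C-repeat binding factors.

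The called gene was LOC100828546 (CIPK14), one of the kinases that calcium sensors of the CBL type switch on, and it changed in the direction opposite to CBF7. It rose to 99.5 ± 6.18 CPM in hdac19-2b, against 43.2 ± 5.76 CPM in wild type (SD, n = 3). Its log2 fold change there was 1.20, with an edgeR adjusted p of 0.0425. In gf14h-1 it had 95.9 ± 17.6 CPM (SD, n = 3), and its log2 fold change, 1.15, did not pass (edgeR adjusted p 0.0762). The mean of both mutants was called, with a log2 fold change of 1.18 and an edgeR adjusted p of 0.0189. Both calls were lost when any wild type or hdac19-2b library was left out (edgeR adjusted p 0.101 to 0.229 in hdac19-2b and 0.0523 to 0.149 for the mean). The lowest log2 fold changes of the list belonged to MPK3, a MAP kinase of stress signalling. MPK3 stood at 101 ± 62.5 CPM in wild type, 48.3 ± 16.2 in gf14h-1 and 26.9 ± 9.28 in hdac19-2b (SD, n = 3), with log2 fold changes of −1.07 and −1.90 that did not pass (edgeR adjusted p 0.584 and 0.133). TRAB1 (LOC100836269), which binds abscisic acid response elements, had 12.3 ± 1.91, 16.0 ± 5.73 and 12.0 ± 2.36 CPM (SD, n = 3) in wild type, gf14h-1 and hdac19-2b.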

How the data were processed

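The authors deposited expected counts per annotated feature, most of them whole numbers (69.1% to 83.2% per library, to within 0.001), which were rounded, and a normalised signal table, per the file headers and its name a median ratio scaling with annotation. Partek, HISAT2, DESeq2 and FastQC 0.11.9 appear in the submitters' processing notes. How reads were counted, and whether by strand, is not stated there, so reads of near-identical family members may be uncertain. The rounded counts went into edgeR 4.0.16 (R 4.3.3): TMM scaling, default expression filter (23898 features kept), 1 quasi-likelihood fit to all 9 libraries with genotype as the only term, and Benjamini-Hochberg adjustment over all tested features, called under 0.05. The plan had assumed raw counts. Alternatives used limma 3.58.1, DESeq2 1.42.0 and other inputs. The deposited signal times a library's size factor was a whole read number, within 0.1, for 99.9% to 100.0% of values, and the same reads as the count table for CBF5 and CBF7 in every library; edgeR on these reads called 35, 65, 4 and 106 features in gf14h-1, hdac19-2b, between the mutants and for their mean. Log2 CPM used a prior count of 2. All replicate pairs differed by more than sampling noise (chi-square over degrees of freedom 18.0 or more), and the labels do not say which plants make up a replicate.

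CBF5, CBF7 and the gene lists were chosen with earlier results of these data known. Beside them, the text names genes within 50000 bases, the 5 features most correlated with CBF7 over 9 libraries and the 3 with genotype means removed, and called members of the cold and drought list; MPK3 and TRAB1 were added after their values were seen. List members were matched on symbol, synonym or description. Lists by protein likeness and promoter motif were not made, since no sequences were used here. Transcripts of the mutated genes are not analysed here, as no locus is paired with them.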

Additional observations from a re-analysis of the deposited data

How the results depend on the processing

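CBF7 and CBF5 stayed lower in each mutant, and in their mean, in every setting run. For CBF5 no setting could give another direction, since its count was 0 in every mutant library and above 0 in every wild type library. For CBF7 in gf14h-1, 1 setting called it, the DESeq2 Wald test (log2 fold change −2.97), and leaving out 1 library gave −3.39 to −2.06. For CBF7 in hdac19-2b, leaving out 1 library gave −4.42 to −3.11. For the mean of both mutants leaving out 1 library gave −3.90 to −2.59, and leaving out both gf14h-1 libraries that stand apart, chosen after seeing the data, gave −3.25 (edgeR adjusted p 0.0791). For CBF5 the DESeq2 Wald test gave adjusted p of 0.0247 in gf14h-1, 0.00540 in hdac19-2b and 3.71e-04 for their mean, and edgeR on counts summed per gene gave 0.0413 for their mean. Leaving out 1 library gave adjusted p of 0.195 to 0.876, 0.130 to 0.603 and 0.0703 to 0.476 for CBF5. The lower bounds on the CBF5 fold were 14.1-fold to 42.1-fold in gf14h-1 and 17.2-fold to 51.5-fold in hdac19-2b when 1 wild type library was left out, a setting chosen after seeing the data. These bounds take the pooled level of the remaining wild type libraries as given. The CBF7 difference between the mutants kept its sign in all settings. The CBF5 share in wild type was 5.38% to 7.78% when 1 wild type library was left out. The highest over the lowest wild type library was 5.37 for CBF7 and 7.84 for CBF5 in the median ratio table.

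The labels state no pairing by replicate number. Deviations of same-numbered libraries from their genotype means correlated at −0.14 to 0.02, and those of differently numbered libraries at −0.14 to 0.21. These values do not settle whether samples with the same number were handled together. With the replicate block, CBF7 in hdac19-2b had a log2 fold change of −3.93 and lost its call (edgeR adjusted p 0.0654), LOC100828546 lost its calls in hdac19-2b and for the mean of both mutants (edgeR adjusted p 0.165 and 0.1005), and the counts of called features were 4, 12, 2 and 61 in gf14h-1, hdac19-2b, between the mutants and for their mean, against 35, 65, 4 and 105. The DESeq2 Wald test called 339, 563, 279 and 487, and fits of only the 2 groups called 4, 235 and 1. Counts summed per gene gave 146 in hdac19-2b and 162 for the mean. Leaving out 1 library gave 4 to 51, 2 to 190, 2 to 7 and 33 to 213, and leaving out both gf14h-1 libraries gave 217 in hdac19-2b.

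Lists by promoter motif and protein likeness were not run, and CBF5 between the mutants, at 0 in both, has no value. Depth limits CBF5 most in gf14h-1 replicate 3.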
